A study of Mus musculus with 2 samples.

Results

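The galectin genes Lgals1, Lgals3, Lgals4, Lgals7, Lgals8 and Lgals9 and the galectin-3 binding protein gene Lgals3bp were compared between 2 mouse melanoma cultures. The members were taken by exact symbol, and all 7 were found among the 23284 gene symbols listed for each library. B16 is a melanoma line of C57BL/6 origin, and B16/BL6 is an invasive subline of it. B16 was grown in DMEM and B16/BL6 in RPMI, both with 10% serum, and total RNA was made into stranded mRNA libraries. Each line gave 1 library, so the values carry no replicate error and no p-value, and line and medium cannot be told apart. The study searched for genes related to metastasis.

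Galectins are lectins that bind beta-galactoside sugars. They are made in the cytosol without a signal peptide, leave the cell by an unconventional route, and cross-link glycoproteins at the cell surface, while part of each galectin stays inside the cell. Galectin-1 and galectin-7 are prototype galectins, built around a single carbohydrate-recognition domain. Galectin-3 is the chimera type, with a proline- and glycine-rich tail that lets it form oligomers, and galectin-4, galectin-8 and galectin-9 are tandem-repeat types that carry a pair of such domains. Galectin-3 binding protein is a secreted glycoprotein of the scavenger receptor family that galectin-3, galectin-1 and integrins bind. In melanoma, galectin-1 and galectin-3 are studied for adhesion, vessel growth and escape from T cells.

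Expression was given in FPKM, a fragment count corrected for transcript length and library size, so levels of different genes can be set side by side within a library. A difference is the log2(FPKM + 1) value of B16/BL6 less that of B16. A gene is called higher or lower at 2-fold, and calls were made over the 10709 genes that reached 1 FPKM in either library. By the steps between the lowest values, B16/BL6 was 1.10 times deeper, and the absolute depths were roughly 10029499 fragments in B16 and 11114927 in B16/BL6. Rescaling each library to the same FPKM sum (the TPM scale) shifted the median difference of all genes by -0.16. All 7 melanocyte markers passed the minimum, with a summed level of 12082 FPKM (B16) and 18525 FPKM (B16/BL6). Of these, 2 were higher in B16/BL6, Tyr (10.6 and 164 FPKM) and Pmel (2166 and 4651 FPKM), and 0 were lower. Among all genes tested, 3.31% were higher and 3.16% lower. The median of the 7 markers was 0.61. The 7 fibroblast, 8 epithelial and 6 endothelial markers were all under 1 FPKM in both libraries, and 4, 7 and 4 of them were at 0 in both.

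The promoter of Lgals3, the member that differed, is shown with those of Lgals3bp and Lgals9, members with like levels in both libraries whose genes interferon is known to induce. The promoter set of GRCm38.p6 (the assembly that mm10 names), drawn from RefSeq, held windows for 6 of the 7 members and none for Lgals1. Its windows run from 250 bases before to 50 bases after the annotated transcript start, and bases that an exon of any GENCODE M21 transcript covers are left out below. Both strands were searched for letters of an interferon response element (GAAANNGAAA), AP-1 (TGANTCA), RUNX factors (TGNGGT), the Sp1 GC box (GGGCGG) and the E-box bound by MITF (CATGTG). The N in TGNGGT takes any base, so these RUNX letters are loose and admit TGGGGT and TGAGGT besides TGTGGT and TGCGGT. Capitals mark a match, sequences are written 5′ to 3′ on the gene's strand, and positions count from the transcript start to the first base of the match. The last lines are stretches of up to 30 bases around matches in or beside transcribed sequence.
Lgals3, plus strand, chr14:47373610-47373812: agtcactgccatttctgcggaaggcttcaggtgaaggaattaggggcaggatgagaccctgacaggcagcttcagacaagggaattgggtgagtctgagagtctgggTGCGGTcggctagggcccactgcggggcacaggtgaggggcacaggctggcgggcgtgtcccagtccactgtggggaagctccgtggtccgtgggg
Lgals3bp, minus strand, chr11:118402093-118402209: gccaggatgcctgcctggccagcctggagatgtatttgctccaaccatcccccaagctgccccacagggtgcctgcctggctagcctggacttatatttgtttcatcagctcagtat
Lgals9, minus strand, chr11:78984947-78985174: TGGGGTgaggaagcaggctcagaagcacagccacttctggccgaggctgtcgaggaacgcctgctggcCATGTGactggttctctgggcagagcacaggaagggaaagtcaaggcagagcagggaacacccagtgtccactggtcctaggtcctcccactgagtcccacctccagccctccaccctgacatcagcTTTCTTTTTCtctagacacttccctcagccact
Lgals3 GC boxes at -7 and 5, chr14:47373841-47373870: agggatgctgccCCGCCCtgggaGGGCGGg
Lgals3bp E-box at -29, chr11:118401971-118402000: agcagcctctgtCATGTGttttctgaaaat
Lgals9 RUNX core at 11 and interferon element at 16, chr11:78984890-78984919: atagcTGTGGTTTCTGTTTCctagctcagc

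The Lgals3 promoter was richer in G and C than the other promoters shown. Its 250 bases before the start were 66% G or C with 13 CpG dinucleotides, against medians of 52.4% and 6 over 32851 windows. Lgals3bp had 55.6% and 2, and Lgals9 had 58.4% and 3. The Lgals3 window held a RUNX core at -143 and GC boxes at -7 and 5, with no match to the interferon, AP-1 or MITF letters. GC boxes were found in 35.7% of all windows and the loose letters TGNGGT in 45.8%. Among the 9978 windows of genes past the minimum, the shares were 65.1% and 42%. The Lgals9 window held 2 interferon element matches, at -55 and 16. That pattern was present in 3.44% of all windows and 2.61% of those of genes past the minimum. The same window held an E-box at -182 and matches to TGNGGT at -250 (TGGGGT) and 11 (TGTGGT). The RUNX core at 11 overlaps the interferon match at 16 by its last base. Lgals3bp held E-boxes at -29 and 42, a motif found in 14.2% of all windows and 7.93% of those of genes past the minimum. It also held matches to TGNGGT at -49 (ACCCCA, which is TGGGGT on the other strand) and -1 (TGAGGT). AP-1 letters, present in 7.81% and 4.52% of these windows, were in none of the 6 members' windows. A match describes letters only.

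**Figure D1:**
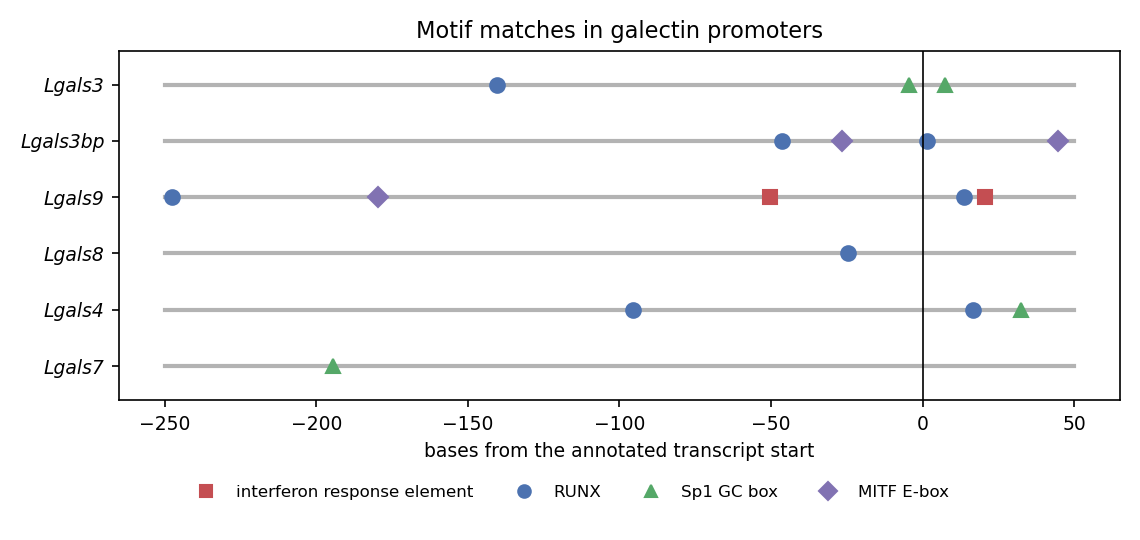
Positions of motif matches in the promoter windows of 6 members, in bases from the annotated transcript start (x axis, vertical line at the start), 1 row per gene, with 1 symbol type per motif centred on its match. Lgals9 carries the 2 interferon element matches, and Lgals3 has GC boxes on both sides of its start. The windows of Lgals4, Lgals7 and Lgals8 lie inside the gene positions given for them, not at the outermost start.

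Lgals3 was about 10-fold lower in B16/BL6, and no other member at 1 FPKM or more was called in either direction. Lgals3 (chromosome 14, 47373860 to 47386167, plus strand), which encodes galectin-3, was at 316 FPKM in the B16 library and 31.1 FPKM in the B16/BL6 library. The ratio was 10.2 and the log2 difference -3.30. In cultures sequenced in bulk, fewer galectin-3 cells and less of its RNA per cell cannot be told apart. At the approximate depths and the longest annotated transcript of 1419 bases, these levels rest on about 4496 and 490 fragments, so both are well above the lowest values of the libraries. Of the 5 members past the minimum, 1 was lower and 0 were higher, where 3.16% of all genes tested were lower, 3.31% higher and 6.46% either way. On the TPM scale the split of all genes turned from 354 higher and 338 lower into 369 and 583, and the Lgals3 difference was -3.49.

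Differences of this size were set among those of other abundant genes, taken by their mean over both libraries. Of 948 genes averaging 100 FPKM or more, 27 were called higher and 15 lower. Of the 948, 6, Lgals3 included, had a difference as low as that of Lgals3, and 5 were as far above 0. The other 5 low ones are small nucleolar RNA or microRNA symbols listed at 0 in B16/BL6, whose FPKM is poorly estimated. The mean uses the values compared, and these 6 genes pass it only through B16, so their count is a description and no test. Among all 10709 genes, 30 were as low as Lgals3 or lower. By rank of FPKM among all symbols, Lgals3 went from 182 in B16 to 3155 in B16/BL6.

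**Figure D2:**
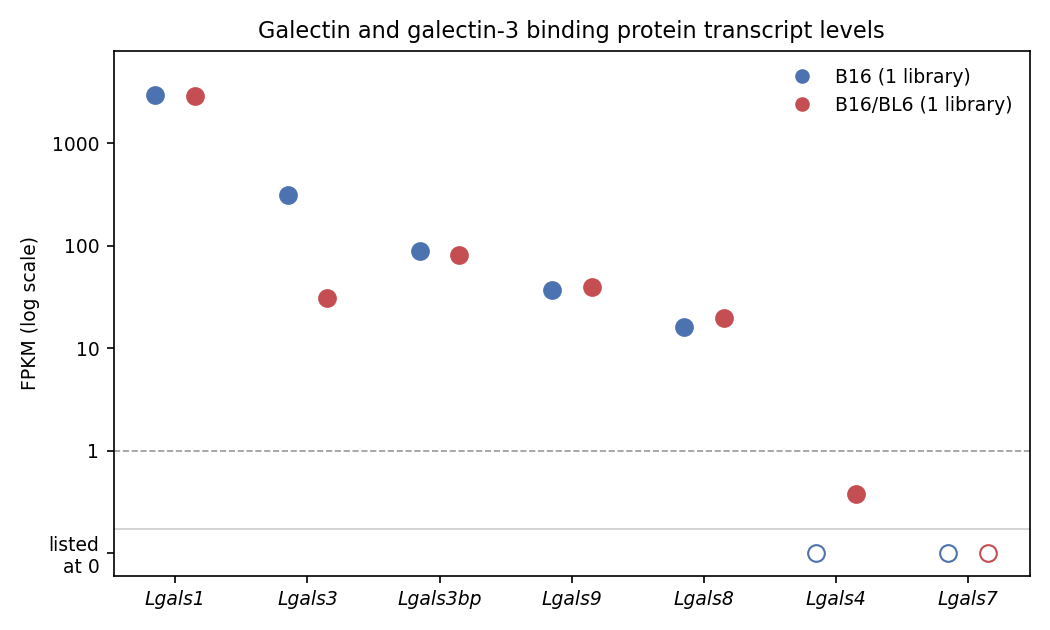
FPKM (log axis) of the 7 members in the B16 library (blue) and the B16/BL6 library (red), 1 point per library, with open circles for values listed at 0 and a dashed line at the minimum of 1 FPKM. Lgals3 is the member whose points lie far apart, at 316 and 31.1 FPKM.

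Lgals1, which encodes galectin-1, was the most abundant member by far. The gene (chromosome 15, 78926725 to 78930465, plus strand) stood at 2967 FPKM (B16) and 2890 FPKM (B16/BL6), the 7th and 15th highest values of the libraries. Its log2 difference was -0.04, close to the median of 0.01 over all genes tested. Of the summed FPKM of the 6 galectin genes it held 88.9% (B16) and 97.0% (B16/BL6). The transcript is short (800 bases at most in GENCODE), and FPKM of short transcripts depends on how the authors set effective length, which the sources used here do not state.

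The make-up of the galectin transcripts differed mainly in Lgals3. Its share of the galectin FPKM was 9.47% (B16) and 1.04% (B16/BL6). The level of Lgals1 was 9.39 times that of Lgals3 in B16 and 92.9 times in B16/BL6. Summed over the 6 galectin genes, the level was 3337 and 2980 FPKM, or 369 and 90.4 FPKM without Lgals1. These galectins made up 0.667% (B16) and 0.529% (B16/BL6) of all FPKM.

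The gene of galectin-3 binding protein was within 2-fold, unlike that of galectin-3. Lgals3bp (chromosome 11, 118392747 to 118401959, minus strand) stood at 89.1 FPKM (B16) and 81.0 FPKM (B16/BL6), a log2 difference of -0.14. Lgals3 was 3.54 times as high as Lgals3bp in B16, and Lgals3bp was 2.60 times as high as Lgals3 in B16/BL6. The order of the pair was thus opposite in the 2 libraries.

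The tandem-repeat genes Lgals8 and Lgals9 were at moderate levels in both cultures. Lgals9 (chromosome 11, 78962979 to 78984924, minus strand), whose product binds the T cell surface protein TIM-3, stood at 37.3 and 39.1 FPKM, a difference of 0.07 that was -0.10 on the TPM scale. Lgals8 (chromosome 13, 12439402 to 12464977, minus strand), whose product senses damaged endosomes and lysosomes, stood at 16.1 and 19.9 FPKM, a difference of 0.29. Lgals9 was 2.31 times the level of Lgals8 in B16 and 1.97 times in B16/BL6. Against Lgals3, Lgals9 was at 0.118 times its level in B16 and 1.26 times in B16/BL6. Both genes have several annotated transcripts (10 for Lgals8 and 4 for Lgals9 in GENCODE), and the files give 1 value per symbol, so isoforms were not separated. In GENCODE, but not by the RefSeq positions, Lgals8 overlaps the end of Heatr1 on the opposite strand (16.7 and 12.6 FPKM), and the sources used here do not say whether the authors' counting used strand.

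The gut galectin gene Lgals4 and the skin galectin gene Lgals7 were at or near 0. Lgals4 (chromosome 7, 28833122 to 28841710, plus strand), expressed mainly in the epithelium of the gut, was listed at 0 for B16 and 0.375 FPKM for B16/BL6, or about 6 fragments. Lgals7 (chromosome 7, 28863796 to 28866285, plus strand), a gene of stratified epithelia, was listed at 0 in both libraries. The epithelial markers Krt5, Krt14, Epcam and Trp63 were also listed at 0 in both. No fold is given for either gene.

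Among galectin relatives, the galectin-like gene Lgalsl, listed under its older symbol 1110067D22Rik, stood at 19.8 and 21.6 FPKM, a difference of 0.12. Lgals2, Lgals12 and the lens gene Grifin were listed at 0 in both libraries. Lgals6, a close relative of Lgals4 that some mouse strains carry, was listed at 0.654 FPKM (B16) and 0.0444 FPKM (B16/BL6). It matched no gene of GENCODE M21 or of the RefSeq positions used here. How reads were split between Lgals4 and Lgals6 thus could not be checked, and neither value shows which gene was expressed. Reads of Lgals4 and Lgals6 may not be separable, and their summed level was 0.654 and 0.419 FPKM. Of the other members, no 50-base stretch of the longest transcript of Lgals1, Lgals3, Lgals3bp, Lgals7 or Lgals9 recurred in another gene's GENCODE transcript. For Lgals8 1.47% of such stretches did.

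In order of level, B16 ran Lgals1, Lgals3, Lgals3bp, Lgals9, Lgals8, and B16/BL6 ran Lgals1, Lgals3bp, Lgals9, Lgals3, Lgals8. Lgals3 moved from the second place to the fourth, and the remaining members kept their order. Without replicates, it cannot be said which neighbours in these orders differ beyond their spread.

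**Figure D3:**
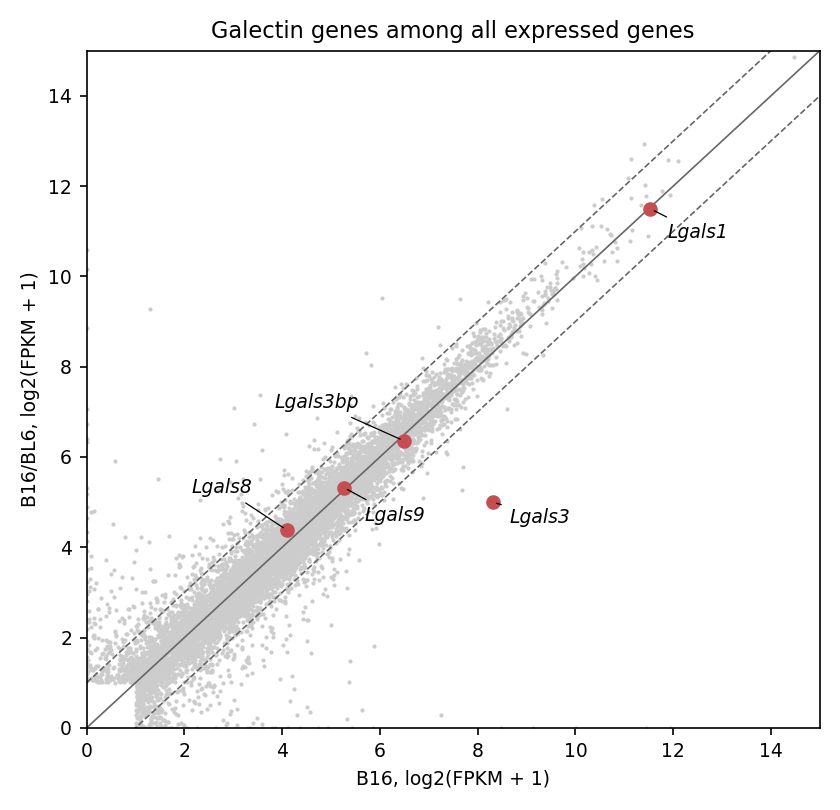
log2(FPKM + 1) in B16 (x axis) against B16/BL6 (y axis) for the 10709 genes that reached 1 FPKM in either library (grey), with the 5 members past that minimum in red, the line of equality and dashed lines at 2-fold. Lgals1, Lgals3bp, Lgals8 and Lgals9 lie between the dashed lines, and Lgals3 lies below them.

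The genes around Lgals3 were all within 2-fold. Its 6 nearest expressed neighbours, 3 on each side, lay within 154.7 kb and ranged from -0.57 to 0.09 on the log2 scale. The closest, the mitotic spindle gene Dlgap5 at 1.6 kb, stood at 18.01 and 17.2 FPKM, and Mapk1ip1l on the other side at 31.9 and 34.0 FPKM. Socs4 (7.40 and 7.55 FPKM), Wdhd1 (9.39 and 7.70 FPKM), Fbxo34 (5.76 and 3.96 FPKM) and Atg14 (3.41 and 1.97 FPKM) were also within 2-fold. The median difference of the 366 genes tested on chromosome 14 was 0.14, so with each chromosome centred Lgals3 was at -3.44.

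Lgals1 had the reverse arrangement, a level alike in both libraries beside a neighbour that was not. Pdxp, the pyridoxal phosphatase gene 7.2 kb before it, stood at 5.001 FPKM (B16) and 0.732 FPKM (B16/BL6), a difference of -1.79. The other 5 neighbours of Lgals1 (Gga1, Sh3bp1, Nol12, Triobp and H1f0) were within 2-fold. Over all members there were 36 distinct neighbours, of which Pdxp was lower and 0 were higher, against 3.16% and 3.31% of all genes tested. The neighbours of Lgals8 ranged from -0.43 to 0.60, those of Lgals9 from -0.71 to 0.21 and those of Lgals3bp from -0.20 to 0.79, the highest being the metalloprotease inhibitor gene Timp2 (82.3 and 143 FPKM). Lgals4 and Lgals7 lie side by side and share all 6 expressed neighbours, which ranged from -0.47 to 0.47.

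**Figure D4:**
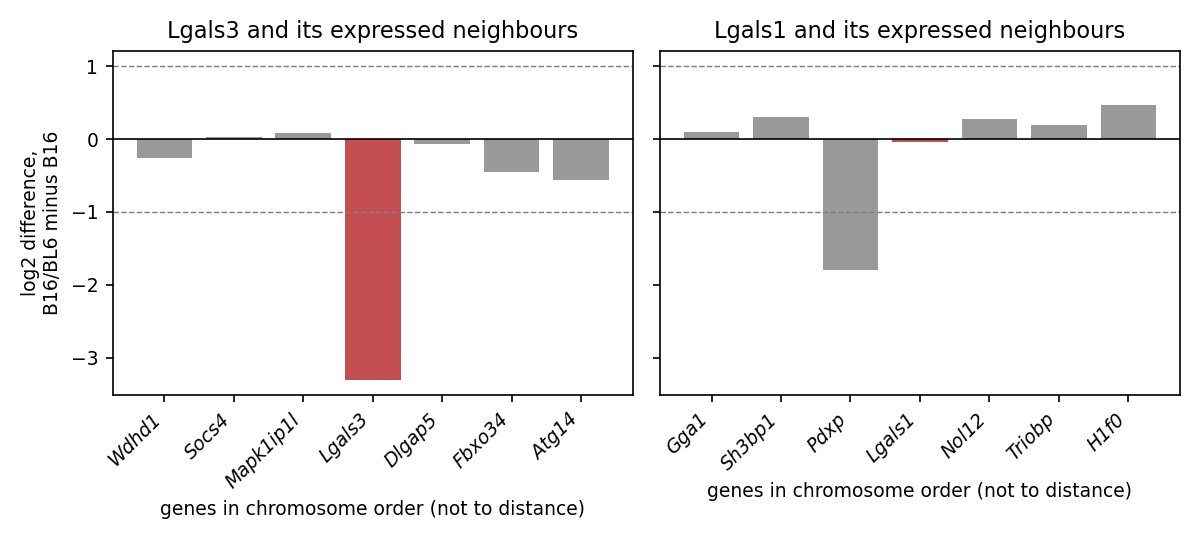
log2 difference, B16/BL6 minus B16 (y axis), of Lgals3 (left) and Lgals1 (right) in red and of 3 expressed genes on each side in grey, in chromosome order and not to distance, with dashed lines at 2-fold. Lgals3 is at -3.30 among neighbours within 2-fold, and Pdxp at -1.79 stands beside Lgals1 at -0.04.

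The genes whose pair of levels was nearest to that of Lgals3 were Mcam, Aes and Ier3. Nearness was the straight-line distance between the pairs of log2(FPKM + 1) values, so it rests on 2 libraries. These genes were picked by the Lgals3 values themselves, so their likeness to Lgals3 is no evidence of a link. The nearest was Mcam, a melanoma adhesion molecule whose glycans galectin-3 binds, at 204 and 37.5 FPKM (distance 0.68). Next came Aes, which encodes a Groucho-type corepressor, at 208 and 54.3 FPKM (0.99), and the immediate early gene Ier3 at 117 and 32.8 FPKM (1.43). The genes nearest to Lgals3bp lay at smaller distances, namely Rbbp7 (89.0 and 81.0 FPKM, distance 0.0024), Sra1 (89.0 and 80.2 FPKM, 0.014) and the lysosomal enzyme gene Naglu (90.0 and 82.1 FPKM, 0.024).

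Most glycoproteins that galectins or galectin-3 binding protein bind were within 2-fold. Of 30 genes, 23 passed the minimum, of which 2 were higher and 2 lower, against 3.31% and 3.16% of all genes tested, and 12 were above 0 and 11 below. The lower ones were Mcam, at -2.41, and the laminin chain gene Lamb1 (6.34 and 0.0737 FPKM). The higher ones were the tetraspanin gene Cd82 (3.97 and 32.0 FPKM) and Pdpn, which encodes podoplanin, a ligand of galectin-8 (2.55 and 12.5 FPKM). The lysosomal ligand gene Lamp1 stood at 391 and 556 FPKM, Cd44 at 114 and 135 FPKM, the basigin gene Bsg at 366 and 707 FPKM and the integrin chain gene Itgb1 at 176 and 133 FPKM, all within 2-fold. Havcr2, which encodes TIM-3, had values of 1.12 and 1.66 FPKM. Over the 23 genes the median difference was 0.02.

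Most enzymes that build the sugars galectins bind were within 2-fold as well. Of 23 enzymes of N-glycan branching, poly-N-acetyllactosamine and O-glycan cores, 19 passed the minimum. Of these, 2 were higher and 2 lower, against 3.31% and 3.16% of all genes tested, with a median of -0.02. The galactosyltransferase genes B4galt2 and B4galt4 were opposite, at 7.49 and 0.0369 FPKM for B4galt2 and at 1.56 and 8.51 FPKM for B4galt4. The most abundant family members stood at 42.5 and 39.2 FPKM (B4galt5) and 26.6 and 25.5 FPKM (B4galt3). B3gnt3, an N-acetylglucosaminyltransferase gene, was higher at 1.34 and 4.46 FPKM, and Gcnt2, which makes the branches of poly-N-acetyllactosamine, was lower at 4.01 and 1.15 FPKM. B3gnt2, a main poly-N-acetyllactosamine enzyme, stood at 24.7 and 11.9 FPKM. Its ratio of 2.07 is brought by the pseudocount to a difference of -0.99, just under 2-fold. In the other direction, the pseudocount also kept Mgat3 (0.142 and 1.07 FPKM, ratio 7.51) and Gcnt1 (1.72 and 3.83 FPKM, ratio 2.23) under 2-fold. Mgat5, the branching enzyme gene whose products galectin-3 binds well, stood at 67.2 and 64.6 FPKM.

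Enzymes that cap these sugars were all within 2-fold. Of 7 sialyl and fucosyl transferases, all passed the minimum, 0 were called, against 6.46% of all genes tested, and the median was -0.02. St6gal1, whose alpha-2,6 sialic acid blocks galectin-1 binding, stood at 14.1 and 21.8 FPKM, St3gal4 at 40.1 and 68.5 FPKM, St3gal6 at 120 and 88.3 FPKM and the core fucosyltransferase gene Fut8 at 16.8 and 22.4 FPKM.

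Inside the cell, 18 partner genes of galectins all passed the minimum and 0 were called, against 6.46% of all genes tested. Their median was -0.05. The autophagy receptor gene Sqstm1 (663 and 1266 FPKM) was highest in its difference, at 0.93. Trim16, a ligase that works with galectin-3 at damaged lysosomes, was lowest at 1.28 and 0.2003 FPKM, a ratio of 6.38 that the pseudocount keeps under 2-fold. Prkaa1, an AMP-activated kinase gene, stood at 43.6 and 23.2 FPKM and Bcl2 at 8.20 and 4.05 FPKM.

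Interferon genes were set beside Lgals9 and Lgals3bp, since interferon is known to induce both. Of 17 genes, 15 passed the minimum, 0 were higher and 3 were lower, against 3.31% and 3.16% of all genes tested. Of the 15, 9 were below 0, and the median was -0.07. On the TPM scale, where the median of all genes was -0.16, it was -0.39, and with a pseudocount of 5 none of these genes was called (0 lower). The lower genes were the interferon-induced Isg15 (7.11 and 1.95 FPKM), Ifit1 (1.94 and 0.135 FPKM) and Ifit3 (1.67 and 0.321 FPKM). Ifit1 and Ifit3 reached the minimum in B16 alone. The receptor gene Ifngr1 stood at 7.95 and 11.7 FPKM. Lgals9, with its 2 interferon element matches, and Lgals3bp stood at 0.07 and -0.14 on the same scale, inside 2-fold.

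No transcription factor described upstream of Lgals3 was called, and a kinase gene of the same list was. Of its 15 genes, 13 passed the minimum, 1 was higher and 0 were lower, against 3.31% and 3.16% of all genes tested. The median was -0.02. The higher gene was Hipk2, which encodes a kinase that with p53 is known to repress Lgals3, at 13.6 and 36.9 FPKM. The AP-1 genes Junb (11.3 and 6.34 FPKM) and Jun (21.3 and 13.97 FPKM) and the NF-kB gene Nfkb1 (18.8 and 31.7 FPKM) were within 2-fold. Runx1 stood at 2.36 and 2.41 FPKM and Sp1 at 18.7 and 19.2 FPKM, factors whose core letters are in the Lgals3 window. The part of any of these genes in the Lgals3 difference was not tested.

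**Figure D5:**
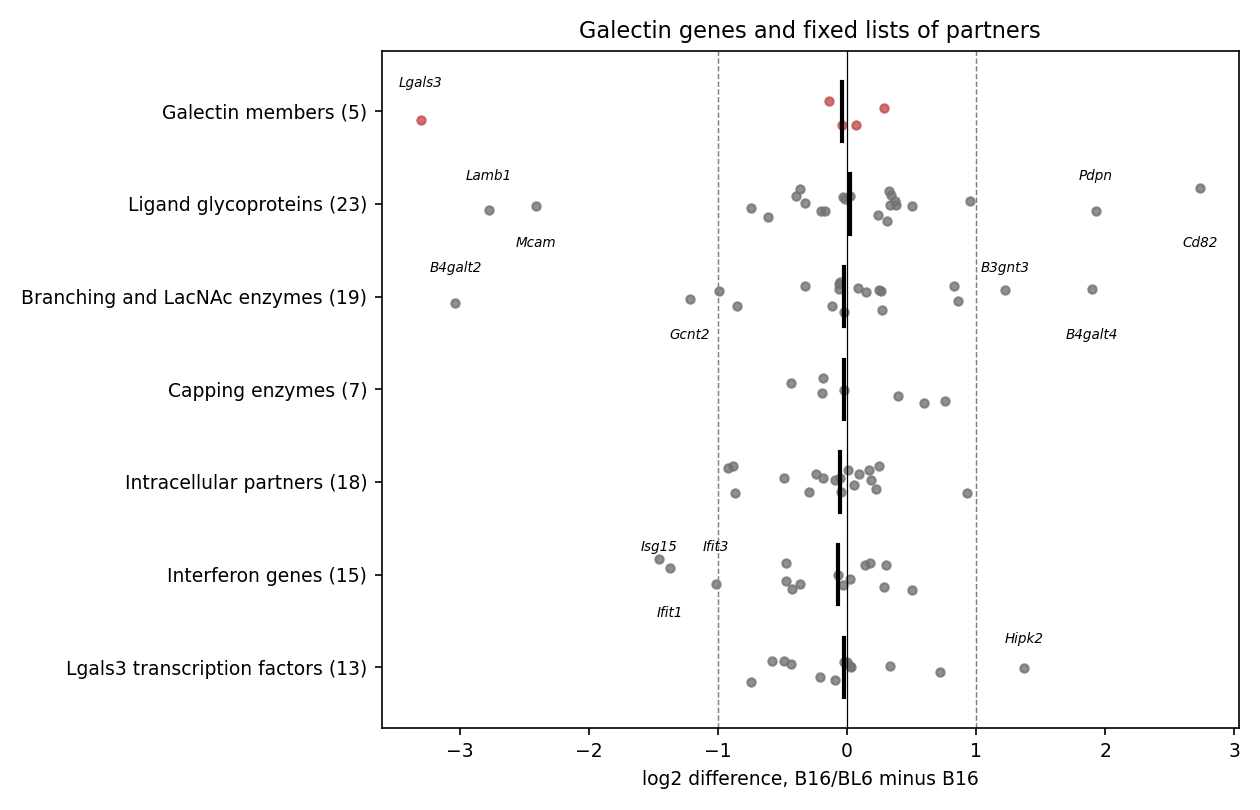
log2 difference, B16/BL6 minus B16 (x axis), of the 5 members past the minimum (red) and of the genes past it in 6 partner lists (grey), 1 point per gene, black bars at medians, dashed lines at 2-fold and the number of genes in brackets. Every list's median is close to 0, and Lgals3 is the lowest gene plotted.

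Macrophage markers were set beside Lgals3, since macrophages are rich in galectin-3. Of 9 markers, 2 reached 1 FPKM, Cd68 (2.83 and 1.23 FPKM) and Lyz2 (2.56 and 3.96 FPKM), and the summed level of the list was 6.74 FPKM (B16) and 6.34 FPKM (B16/BL6). The other 7 were under the minimum in both libraries and were not called. Cd14 was at 0.984 and 0.637 FPKM, Csf1r at 0.173 and 0.291 FPKM and Aif1 at 0.136 FPKM and listed at 0. Ptprc (0.0180 and 0.0814 FPKM), Itgam (0.0202 and 0.0917 FPKM), Adgre1 (listed at 0 and 0.0270 FPKM) and Mrc1 (0.0177 and 0.0161 FPKM) were under 0.1 FPKM. Values this low lie among the lowest steps of the libraries, so no direction is read from them. The part of these markers in the Lgals3 difference was not tested.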

How the data were processed

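Messenger RNA of 1 B16 and 1 B16/BL6 culture was sequenced, and Lgals3bp and 6 galectin genes are described. Each deposited file holds 1 FPKM value per symbol, per the file headers. Cufflinks 2.2.1, TopHat2 2.0.13, SAMtools 0.1.19, Bowtie2 2.2.3 and the mm10 build are named in the submitters' processing notes, with no roles. The annotation and strand setting of the authors are not stated there.

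Count tests need counts, which FPKM values are not, and 1 library per line allows no other test. Genes that reached 1 FPKM in either library were kept, with a pseudocount of 1, which understates the change of low genes. Relative depth came from the commonest ratio (0.906) of 379 genes under 0.1 FPKM. Absolute depth is the median over genes with 1 annotated transcript above 1500 bases and under 0.2 FPKM whose estimate, taking 1 fragment, fell between 8000000 and 14000000 (80 genes in B16 and 75 in B16/BL6). That range was chosen with the spread of the estimates known, so the depth is approximate and no interval was derived.

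The members, 7 partner lists and 5 marker lists were chosen with earlier results of these data known. The rule named every member and relative, up to 4 genes of each list by size of difference, 3 expressed neighbours on each side of a member, and 3 genes nearest in level to Lgals3 and to Lgals3bp. Further genes were picked for naming after seeing their values. Positions and promoters are from RefSeq (23040 of 23284 symbols placed), and transcripts from GENCODE M21. The calling step was run on simulated data with noise-free changes beyond 2-fold. Their recovery was certain, so that run checks the code alone and not the rate of false calls. Computation used Python 3.11.15, NumPy 2.4.6 and pandas 2.3.3. Pseudocounts of 0.1 and 5, the TPM scale, upper-quartile scaling, chromosome centring, no minimum and a minimum of 5 FPKM were alternatives.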

Additional observations from a re-analysis of the deposited data

How the results depend on the processing

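The Lgals3 difference ranged from -3.49 to -3.15 over the 7 alternatives, and in each of them 1 member was lower and 0 were higher. No minimum and a minimum of 5 FPKM cannot change a gene's own difference, so Lgals3 stayed at -3.30 in both by design. Lgals1 ranged from -0.21 to -0.03, Lgals3bp from -0.31 to -0.04 and Lgals8 from 0.13 to 0.61, while Lgals9 was -0.10 on the TPM scale. Counts of all genes were 151 higher and 118 lower with a pseudocount of 5, 492 higher and 511 lower with 0.1, 369 higher and 583 lower on the TPM scale and 246 higher and 212 lower with a minimum of 5 FPKM. The median of ligand glycoproteins was -0.15 on the TPM scale and -0.033 after upper-quartile scaling. Branching enzymes had 4 higher with a pseudocount of 0.1, 4 lower on the TPM scale, 1 higher and 1 lower with a pseudocount of 5 or a minimum of 5 FPKM, and 1 lower with a median of 0.0037 with each chromosome centred. Intracellular partners had 2 lower with a pseudocount of 0.1, 3 lower on the TPM scale and 1 higher with chromosomes centred. Interferon genes had 0 lower with a pseudocount of 5 and 1 lower with a minimum of 5 FPKM, and the median of the Lgals3 factors was 0.0040 with chromosomes centred. The cause of these changes was not tested. No paired analysis was possible because there was 1 library of each line. Without replicates, a difference of any size, that of Lgals3 included, cannot be told from the spread between cultures.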
